A study of Mus musculus with 8 samples.

Results

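Fragments of the 2 cytosolic lysine tRNAs, tRNA-Lys-TTT and tRNA-Lys-CTT, were compared in dissociated mouse islet cells with and without cytokines. They are all entries of the authors' deposited tables of differing tRNA-derived fragments (tRFs) with a nuclear parent gene named Lys-TTT or Lys-CTT, 6 of 112 listed tRFs. The fragments came 3 from Lys-TTT and 3 from Lys-CTT, and no fragment was assigned to both. In the authors' deposited tables the 3 Lys-TTT fragments were listed as higher with cytokines and the 3 Lys-CTT fragments as lower. That listing chose them, so every difference between cytokine and control libraries given here is a description with no test.

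The islets came from 12-week-old C57BL/6NRj mice, and the labels describe the cells as mainly beta and alpha cells. Control cells (4 libraries) had no cytokine treatment. Treated cells (4 libraries) were exposed for 24 h to 3 inflammatory cytokines, IFN-γ at 30 ng/mL, IL-1β at 0.1 ng/mL and TNF-α at 10 ng/mL, to ask what such factors, which immune cells release in islets of diabetes-prone mice, do to tRF levels. Both groups had been dissociated and cultured beforehand. The labels do not state whether the libraries of a group are from different animals or cultures, so their spread may be technical. The tables hold tRFs only, and the labelled cell types were not checked against marker genes here. In such bulk samples fewer cells of a type and less RNA per cell cannot be told apart.

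Both tRNAs carry lysine to the ribosome. Lys-TTT, whose anticodon is UUU in the RNA, reads the AAA codon and also AAG, while Lys-CTT reads AAG. In beta cells Lys-TTT is known as the substrate of Cdkal1, an enzyme that modifies the adenosine next to its anticodon, and variants near the human gene are linked to adult-onset diabetes. Cleavage of mature tRNAs gives fragments that are grouped by where they lie: internal fragments (i-tRFs) lack both ends of the tRNA, and a 3-tRH is a long fragment that starts near the anticodon and runs to the CCA tail.

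The sequences below show what separates the fragments of one tRNA from those of the other. They are written as DNA, 5′ to 3′, as the deposited tables give them, and capitals mark the 11 of 56 positions (16 to 71) at which Lys-TTT and Lys-CTT differ. Positions are counted from the 5′ end of the tRNA, as in the deposited tables, with the anticodon at 34 to 36.
Lys-TTT 21 to 70: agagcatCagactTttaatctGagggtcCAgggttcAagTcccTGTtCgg
Lys-TTT 21 to 71: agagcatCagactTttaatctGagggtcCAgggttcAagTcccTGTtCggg
Lys-TTT 16 to 70: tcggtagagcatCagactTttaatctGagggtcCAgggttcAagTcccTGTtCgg
Lys-CTT 16 to 54: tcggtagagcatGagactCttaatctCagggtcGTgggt
Lys-CTT 20 to 54: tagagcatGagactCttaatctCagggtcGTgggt
Lys-CTT 33 to 76: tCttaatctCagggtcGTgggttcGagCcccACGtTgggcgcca

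All 6 fragments contained the whole anticodon. The 3 Lys-TTT fragments were i-tRFs of 50, 51 and 55 nt that spanned the T loop, the loop of the arm next to the acceptor stem, and stopped at position 70 or 71, short of the CCA tail. The Lys-CTT fragments of positions 16 to 54 (39 nt) and 20 to 54 (35 nt) were i-tRFs that stopped on the first base of the T loop. The Lys-CTT fragment of positions 33 to 76 (44 nt) was a 3-tRH that began on the base before the anticodon and ended in CCA. One fragment of each tRNA began at position 16, and these shared their first 12 bases. Thus the i-tRFs of both tRNAs overlapped over the anticodon arm and differed in where they ended, while the 3-tRH began inside the loop of that arm.

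**Figure D1:**
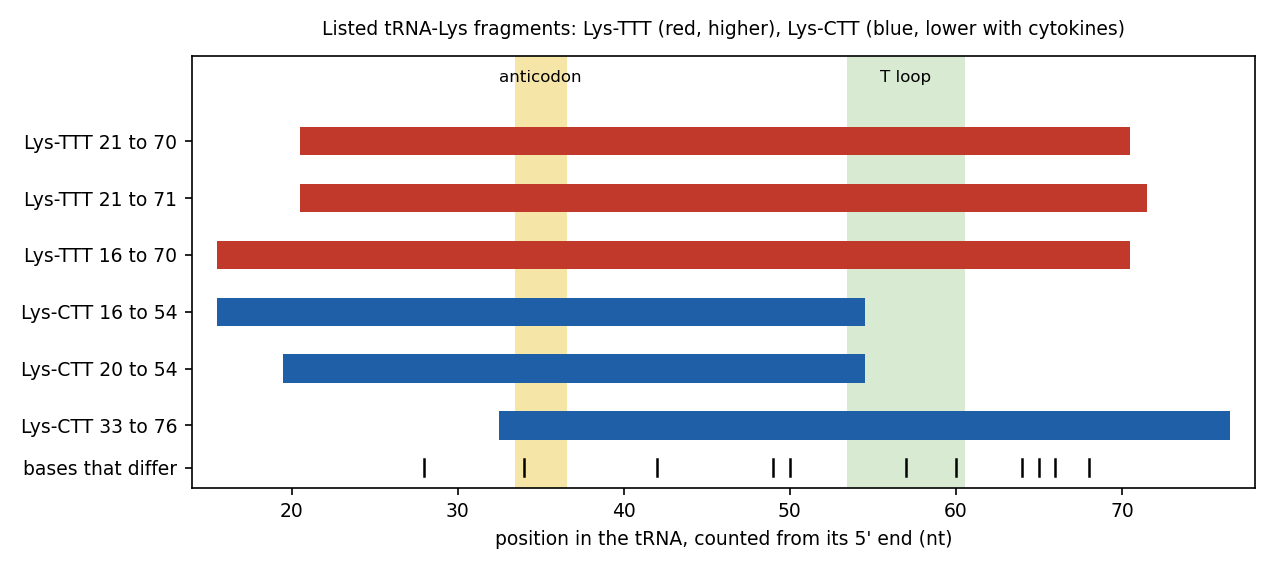
Each bar is 1 listed tRNA-Lys fragment, drawn over its positions in the tRNA (nt from the 5′ end), in red for Lys-TTT and blue for Lys-CTT. Black ticks mark the 11 positions at which the tRNAs differ. The Lys-TTT bars end at 70 or 71, and the Lys-CTT bars end at 54 or at 76.

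Over positions 16 to 54, which both fragments that began at 16 cover, 5 of 39 bases differed. Over positions 55 to 71 it was 6 of 17. Written with the Lys-TTT base first, then the position, then the Lys-CTT base, the anticodon differed by T34C and its stem by C28G and G42C, which face each other. The T stem differed by C49G with G65C and by A50T with T64A, again facing pairs, and all 10 base pairs of both stems were Watson-Crick pairs in both tRNAs. The T loop differed by A57G and T60C, and the 3′ side of the acceptor stem by T66G and C68T. Position 58 was A in both tRNAs. The Lys-TTT fragments and the Lys-CTT 3-tRH covered it, and the 2 Lys-CTT i-tRFs stopped before it.

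Each Lys-TTT fragment matched the same 6 genes, all of the isodecoder Lys-TTT-1, with 2 genes on chromosome 1, 1 on chromosome 11, 1 on chromosome 13 and 2 on chromosome 19. The 3 Lys-CTT fragments shared 7 genes of the isodecoder Lys-CTT-3, on chromosomes 3 (2 genes), 11 (1 gene), 13 (1 gene) and 17 (3 genes). The fragment of positions 20 to 54 also matched Lys-CTT-10-1 and Lys-CTT-16-1, where the same bases lie at positions 14 to 48. The copies are identical over these stretches, so the reads cannot be traced to single genes.

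The listed tRNA-Lys fragments were scarce, and the depth limits what can be said of each. Effective library sizes ranged from 367454 to 939108 reads, and 3 reads stood for 3.19 to 8.16 CPM (counts per unit of library size, so that libraries compare). Reads of all 6 fragments came to 133 over the controls and 147 over the cytokine libraries. By mean CPM they ranked from 84 to 112 among the 112 listed tRFs. Listed tRFs made up 0.354% of the 31661 tRFs that the authors' false discovery rates (FDR) imply were tested, 0.0916% listed as higher and 0.262% as lower. The rule used that contrast, so nothing follows from these shares for the lysine tRNAs. In all 6 fragments the values of the control and cytokine libraries did not overlap, which also held for 98.2% of all listed tRFs, 96.6% of those listed as higher and 98.8% of those listed as lower.

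The Lys-TTT fragment of positions 21 to 70 was the most abundant of the 3 with cytokines. It had 1 read in control replicate 1 and 0 reads in control replicates 2, 3 and 4. The cytokine libraries held 4, 22, 11 and 39 reads in replicates 1 to 4, which is 10.9, 47.3, 19.3 and 41.5 CPM. It was thus near absent from every control library and present in every cytokine library, most in replicates 2 and 4. The control mean was 0.375 ± 0.75 CPM and the cytokine mean 29.8 ± 17.4 CPM (SD, n = 4 in each). Its log2 fold change in the authors' deposited tables was 5.65, with an FDR of 3.6e-05, the sixth smallest of the list.

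The Lys-TTT fragment of positions 21 to 71 is the same sequence with 1 more base at its 3′ end. It had 0 reads in every control library. Cytokine replicates 1 to 4 held 1, 4, 3 and 18 reads, or 2.72, 8.61, 5.26 and 19.2 CPM. Replicate 4 held most of its reads. Its mean with cytokines was 8.94 ± 7.23 CPM (SD, n = 4). Against a floor of 3 reads over the control group it was 9.21-fold higher, or 4.73-fold higher without cytokine replicate 4. These values leave out counting error in the cytokine reads, so they are not lower limits. It had the lowest mean of all listed tRFs, and in the authors' deposited tables it had an FDR of 0.0301 and no adjusted p from DESeq.

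The Lys-TTT fragment of positions 16 to 70 began 5 bases earlier. The control replicates 1 to 4 held 1, 0, 1 and 0 of its reads, and the cytokine replicates 1 to 4 held 7, 10, 7 and 7. The latter equal 19, 21.5, 12.3 and 7.45 CPM, and the control values were 1.5 CPM in replicate 1 and 2.69 CPM in replicate 3. Its read count was thus nearly the same in the 4 cytokine libraries although their sizes differed. The mean was 1.05 ± 1.3 CPM over the controls and 15.1 ± 6.41 CPM over the cytokine libraries (SD, n = 4 each). The log2 fold change was 3.82 ± 0.79 (SE, edgeR fit over all listed tRFs). The ratio of pooled reads, 31 against 2, was 16.5 once scaled by library size (4.19 to 142, exact 95% interval for counting error). It was 24.1 without control replicate 1 and 28 without control replicate 3, with 1 control read left in each case.

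The observed shares of the listed Lys-TTT fragments varied across the cytokine libraries. The fragment that began at position 16 made up 58.3% of the 12 Lys-TTT reads in replicate 1 (exact 95% binomial interval 27.7 to 84.8%). Its share was 27.8% of 36 reads in replicate 2, 33.3% of 21 reads in replicate 3 and 10.9% of 64 reads in replicate 4 (interval in replicate 4, 4.51 to 21.2%). The fragment ending at position 71 took 28.1% of the Lys-TTT reads in replicate 4 and 8.33%, 11.1% and 14.3% in replicates 1, 2 and 3. The intervals for the fragment starting at 16 do not overlap between replicates 1 and 4, the libraries with its highest and lowest share. Those of replicates 1, 2 and 3 overlap each other. All these intervals cover counting error only.

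The Lys-CTT fragment of positions 16 to 54 had 7, 7, 7 and 16 reads in control replicates 1 to 4, or 10.5, 8.85, 18.8 and 24.2 CPM. With cytokines it had 1 read in replicate 2, 1 read in replicate 4 and 0 reads in replicates 1 and 3. Every control library held it, and no cytokine library held more than 1 read. The mean was 15.6 ± 7.23 CPM over the controls and 0.804 ± 1.03 CPM over the cytokine libraries (SD, n = 4 each). The log2 fold change was -3.87 ± 0.77 (SE, edgeR fit). The pooled ratio of control to cytokine of 17.4 (exact 95% interval 4.49 to 149) was 27.9 without cytokine replicate 2.

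The Lys-CTT fragment of positions 20 to 54 ended at the same base. It had 14, 9, 6 and 19 reads in control replicates 1 to 4, which is 21, 11.4, 16.1 and 28.8 CPM. With cytokines it had 0, 2, 2 and 1 reads, or 0, 4.3, 3.51 and 1.06 CPM. The lowest control library thus lay above the highest cytokine library. The means were 19.3 ± 7.44 and 2.22 ± 2.02 CPM (SD, n = 4 per group), with a log2 fold change of -3.04 ± 0.66 (SE, edgeR fit). Pooled, 48 control reads against 5 cytokine reads gave a ratio of 9.03 (exact 95% interval 3.61 to 29.1).

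The Lys-CTT 3-tRH of positions 33 to 76 had the fitted log2 fold change nearest to 0 of the 6. It had 15, 10, 5 and 15 reads in control replicates 1 to 4, or 22.5, 12.6, 13.4 and 22.7 CPM. The cytokine libraries held 0, 1, 2 and 4 reads, or 0, 2.15, 3.51 and 4.26 CPM. All control values lay above all cytokine values, with the nearest at 12.6 and 4.26 CPM. The means were 17.8 ± 5.55 and 2.48 ± 1.87 CPM (SD, n = 4 per group), and the log2 fold change was -2.56 ± 0.62 (SE, edgeR fit). With TMM factors over the listed tRFs it was -0.86 ± 0.6, and with DESeq2 factors -0.67 ± 0.62, each within about 1.5 SE of 0. The same factors gave -1.35 ± 0.66 and -1.15 ± 0.68 for Lys-CTT 20 to 54. For Lys-CTT 16 to 54 they gave -2.25 ± 0.79 and -2.05 ± 0.82. These factors rest on the listed tRFs alone, of which 83 of 112 were listed as lower. In the authors' deposited tables the 3-tRH had the largest FDR of the 6, 0.0382, under the largest listed FDR of 0.0489. Their DESeq adjusted p for it was 0.0902, and for the Lys-CTT fragments of 16 to 54 and 20 to 54 it was 0.0368 and 0.0493. Fragments just outside the FDR limit were not analysed here.

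**Figure D2:**
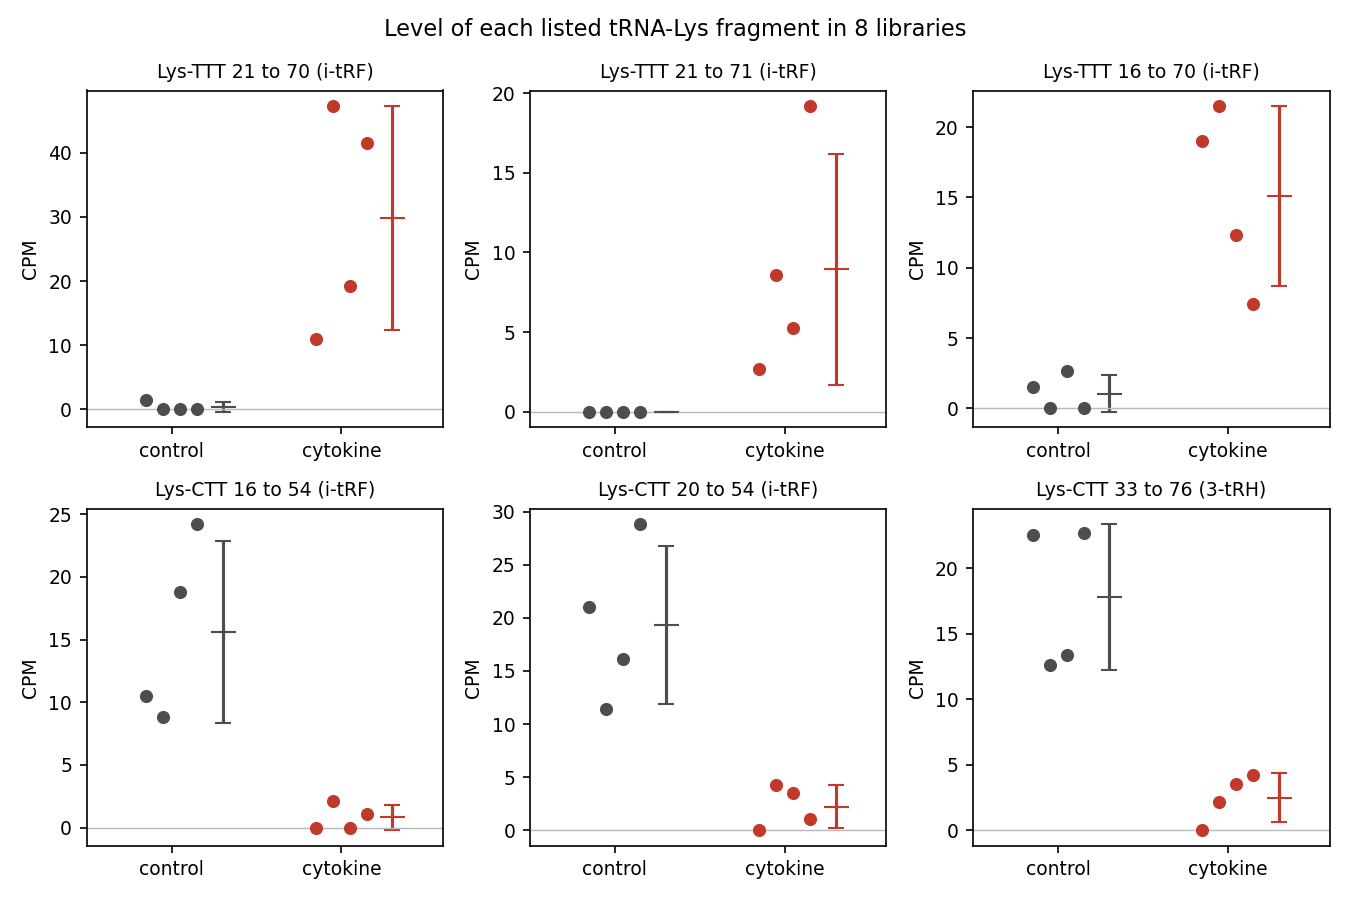
Each panel shows 1 tRNA-Lys fragment, with CPM on a linear vertical axis that differs between panels. Points are the 4 control (grey) and 4 cytokine (red) libraries in order of replicate number, and bars are the mean ± SD. In no panel do the points of both groups overlap, and the control points of Lys-TTT 21 to 71 all lie at 0.

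In the controls the 3 Lys-CTT fragments took similar parts of the listed Lys-CTT reads. Of 130 control reads, the fragment of positions 16 to 54 had 28.5% (exact 95% binomial interval 20.9 to 37.0%), that of 20 to 54 had 36.9% (28.6 to 45.8%) and the 3-tRH had 34.6% (26.5 to 43.5%). The share of the fragment of positions 16 to 54 was 19.4% in replicate 1 and 38.9% in replicate 3, with intervals that overlap. Within the controls the coefficient of variation of the Lys-CTT fragments, 46.3%, 38.5% and 31.1% in the same order, lay at or below the median of 46.5% over all listed tRFs. The Lys-TTT fragments in cytokine libraries, at 58.6% (21 to 70), 80.9% (21 to 71) and 42.5% (16 to 70), stood beside a median of 46.2%. Both medians take in tRFs listed in either direction. The median level of the listed tRFs was 49.6 CPM in the controls and 14.9 CPM in the cytokine libraries. The coefficient depends on the number of reads, so these values are not compared at like depth.

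Summed by tRNA, the Lys-TTT fragments stood at 1.42 ± 1.65 CPM over the controls and 53.8 ± 22.4 CPM over the cytokine libraries (SD, n = 4 each). The cytokine libraries held 32.7, 77.5, 36.8 and 68.1 CPM in replicates 1 to 4. The pooled Lys-TTT reads were 3 in controls and 133 with cytokines, a scaled ratio of 47.1 (exact 95% interval 15.8 to 231) that was 104 without control replicate 1. The Lys-CTT sum went the other way, from 54, 32.9, 48.4 and 75.8 CPM in control replicates 1 to 4 to 0, 8.61, 7.01 and 6.39 CPM in cytokine replicates 1 to 4. It had 130 pooled reads in controls and 14 with cytokines, a ratio of 8.73 of control to cytokine (exact 95% interval 5.02 to 16.4). The choice of the listed rows fixes the direction of both sums. Both directions held when the libraries were scaled by listed totals, by TMM or DESeq2 factors over the listed tRFs or by the authors' DESeq size factors, scalings that moved the log2 fold changes of all listed tRFs by a median of 0.62, 1.73, 1.95 and 0.11.

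The share of Lys-TTT among the reads of the listed tRNA-Lys fragments needs no scaling by library size. Lysine tRFs outside the list were not counted, so the share among all lysine tRFs of a library is not known. Lys-TTT made up 2 of 38 listed tRNA-Lys reads in control replicate 1 and 0 of 26 in replicate 2. It made up 1 of 19 in control replicate 3 and 0 of 50 in replicate 4. With cytokines it made up 12 of 12, 36 of 40, 21 of 25 and 64 of 70 reads in replicates 1 to 4. These are shares of 0 to 5.26% in the controls and 84 to 100% with cytokines. The exact 95% binomial intervals reached at most 26.0% in a control library and fell to no less than 63.9% in a cytokine library. They cover counting error only, and the choice of the listed rows fixed the direction of this difference in share. Where Lys-TTT had 0 reads, its share could have been up to 13.2% in control replicate 2 and 7.11% in control replicate 4. With 0.5 read added to each sum, the log2 ratio of Lys-TTT to Lys-CTT was -4.97 ± 1.47 in controls and 3.31 ± 0.996 with cytokines (SD, n = 4 per group). In control replicates 2 and 4 and cytokine replicate 1, where one tRNA had 0 reads, this ratio was set by the added 0.5 read and the number of reads of the other tRNA, so its means and SDs depend on depth. The libraries of each group lay on opposite sides of equal reads, a direction set by the choice of the listed rows. The nearest were at -3.62 in control replicate 3 and 2.26 in cytokine replicate 3.

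**Figure D3:**
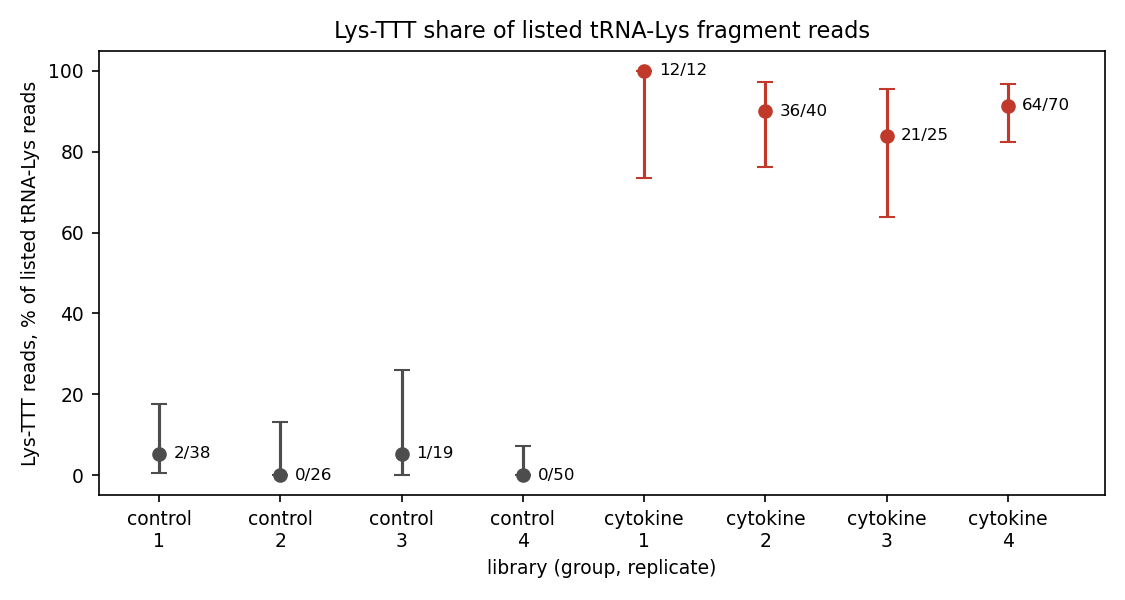
Points are the percentage of listed tRNA-Lys reads that came from Lys-TTT in each library, with the reads printed beside each point as Lys-TTT over all tRNA-Lys, and bars are exact 95% binomial intervals for counting error. The 4 control libraries (grey) lie at 5.26% or lower and the 4 cytokine libraries (red) at 84% or higher.

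The tRNA and the end position of the fragments cannot be told apart in this list. No listed Lys-TTT fragment ended at position 54, and no listed Lys-CTT fragment was an i-tRF that ended at 70 or 71. Other tRNAs were therefore read by end position, a description chosen after the values were seen. Positions were counted within each tRNA and not aligned between tRNAs, so the same number can stand for different bases. Of the 54 listed i-tRFs, 28 were listed as higher and 26 as lower. The 13 that ended at position 57 or later were all listed as higher. They were the 3 Lys-TTT fragments and 10 fragments of other tRNAs, 1 of them mitochondrial. Among the 10 was Cys-GCA-3/Cys-GCA-7 from 22 to 68, with a control mean of 1.07 ± 0.723 CPM and a cytokine mean of 11.7 ± 2.99 CPM (SD, n = 4 each).

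The Lys-CTT i-tRFs ended on the first T of the T loop. Only the listed nuclear i-tRFs that ended at positions 52 to 55 were read for their last base. Of these, 28 ended on the first or second T of that loop, 23 listed as lower and 5 as higher. The 23 were 8 of tRNA-Arg, 7 of tRNA-Cys, 5 of tRNA-Pro, 2 of tRNA-Lys and 1 of tRNA-Thr, and the 5 were all of tRNA-His. Of the same i-tRFs, the 9 that stopped at the G just before that loop, 6 of tRNA-Pro and 3 of tRNA-His, were all listed as higher. In Pro-CGG-1 the fragment from 18 to 54 went from 77.3 ± 35.9 to 11.8 ± 2.21 CPM, while the fragment from 18 to 52, shorter by 2 bases, went from 49.8 ± 31.4 to 297 ± 163 CPM (n = 4 each, SD). These Pro-CGG-1 fragments were thus listed in opposite directions. In tRNA-His the fragments from 21 to 52, 21 to 53 and 21 to 54 were all listed as higher. Both tRNAs were picked after their values were seen, and a role of the end position was not tested. In tRNA-Pro and tRNA-His the table's positions run 1 behind those of tRNA-Lys in this region, so that position 54 is the second T.

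**Figure D4:**
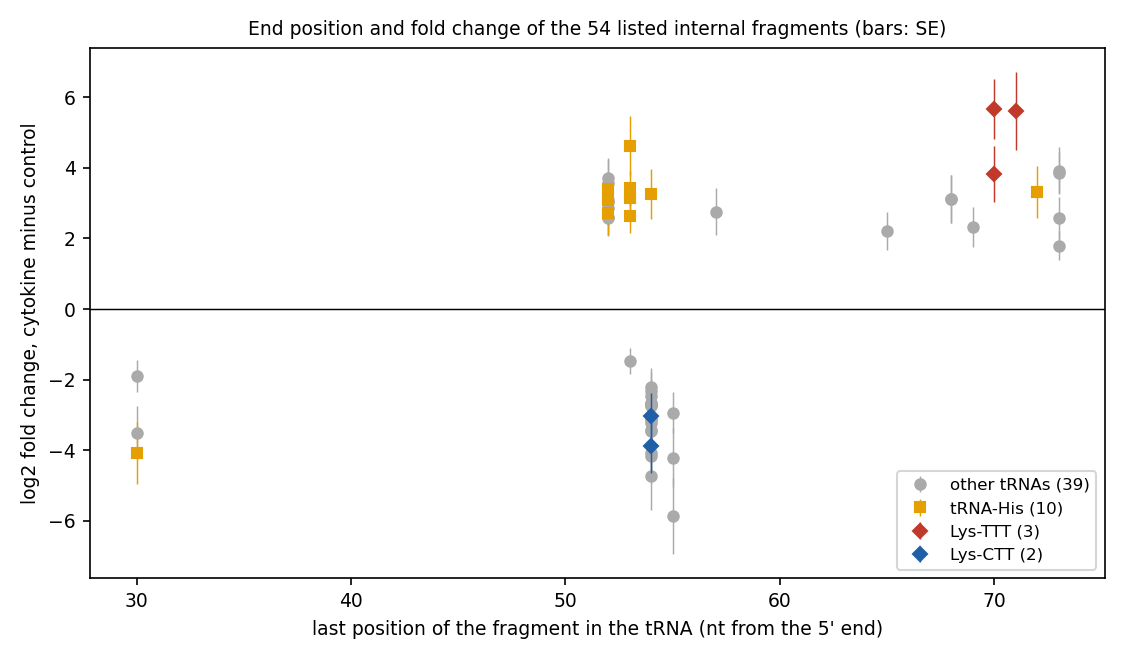
Each point is 1 of the 54 listed i-tRFs, at its last position in the tRNA (nt from the 5′ end) and its log2 fold change of cytokine minus control from the edgeR fit, with bars of ± SE. The 3 Lys-TTT points at 70 and 71 lie above 0 with all others that end at 57 or later, and the 2 Lys-CTT points at 54 lie below 0.

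A second list took the listed tRFs of other tRNAs whose start and end both lay within 2 positions of a tRNA-Lys fragment, 35 in all, 16 listed as higher and 19 as lower. Beside the Lys-CTT 3-tRH lay 13 fragments, 0 listed as higher and 13 as lower, with log2 fold changes from -2.85 to -1.82 (edgeR fit). Of all 58 listed tRFs that were not i-tRFs, 57 were listed as lower, among them all 11 of type 3-tRH, so this direction is shared by nearly every listed fragment outside the i-tRFs. The median of these 13 was -2.56, and the Lys-CTT 3-tRH itself had -2.56. The most abundant was Arg-TCG-3 from 35 to 76, at 736 ± 307 CPM over the controls and 185 ± 47.4 CPM over the cytokine libraries (SD, n = 4 each). Beside the Lys-CTT i-tRFs lay 21 fragments. Of the 7 that ended at 54 or 55, 6 were listed as lower, and His-GTG-2/His-GTG-3 from 21 to 54 was listed as higher. The 14 that ended at 52 or 53 were all listed as higher, the most abundant being His-GTG-2/His-GTG-3 from 21 to 53 at 292 ± 170 and 3125 ± 1443 CPM (SD, n = 4 per group). This split is by position number and not by end base. In tRNA-His position 53 is the first T of the T loop, the base on which the Lys-CTT i-tRFs end. Only Cys-GCA-3/Cys-GCA-7 from 22 to 68 lay beside a Lys-TTT fragment, and it was listed as higher. This fragment and His-GTG-2/His-GTG-3 from 21 to 54 are named as single cases, chosen after their values were seen.

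In length the Lys-TTT fragments stood near the top of the list. The median length was 35 nt over all listed tRFs, and 7 of 112 had 50 nt or more. The Lys-TTT fragments were 3 of those 7 and the 3 longest tRFs listed as higher, and the other 4 were listed as lower. The Lys-CTT fragments, at 35 to 44 nt, ranked from 22 to 54 by length.

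The profiles most like those of the lysine sums were sought among the other listed tRFs, as the smallest root mean square difference of log2(CPM + 5) over the 8 libraries after each profile's own mean was taken off. Nearest to the Lys-TTT sum was a fragment of a mitochondrial tRNA, trnaMT-Met-CAT-MT6 from 17 to 52, with a difference of 0.41 against a list median of 2.55. It went from 14.3 ± 9.89 to 104 ± 26.1 CPM. The next was Pro-TGG-1 from 18 to 52 (0.67), which went from 6.48 ± 3.96 to 82.8 ± 44.9 CPM. Nearest to the Lys-CTT sum were the CCA-ending fragments Arg-CCG-1 from 32 to 76, with a difference of 0.22 against a list median of 0.74, and Arg-TCG-4 from 28 to 76 (0.39). Their levels were 84.1 ± 39.9 against 12.2 ± 4.76 CPM and 72.5 ± 30.3 against 13.4 ± 7.55 CPM (SD, n = 4 per group). Likeness in these 8 libraries follows the listing to a large degree, since profiles listed in the same direction share their main difference.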

How the data were processed

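Small RNA was sequenced after an rtStar pretreatment for tRFs, with QIAseq miRNA libraries, per the labels' protocols. Bowtie 1 and GRCm38.p6 are named in the submitters' processing notes. Raw counts of reads for each distinct tRF sequence were deposited. The TPM columns, the DESeq base mean (a signal) and the DESeq test score were made by the authors and not used for comparisons, except that base means gave their size factors. Log2 fold changes and mean log2 CPM came from edgeR and DESeq run by the authors, per the file headers. The p-values and FDR in the tables are the authors', and every listed FDR was under 0.05. The number of tests was read from FDR × rank / p, at 85 ranks.

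Effective library sizes were those that return the authors' mean log2 CPM (largest error 3e-14, minpack.lm). Counts of all 112 listed tRFs were fitted with edgeR 4.0.16 (glmQLFit, treatment only, no scaling factor), whose log2 fold changes lay a median of 0.00218 from those of the authors. SE is the log2 fold change over the square root of F. The authors' edgeR and DESeq versions, and whether molecular identifiers were collapsed, were not given in the sources used here. Pooled ratios have Clopper-Pearson intervals conditional on the total, for counting error only. All 6 lysine fragments were named, as were the 2 other listed tRFs nearest in profile to each sum and at most 3 of the list with like positions, by mean CPM. Other fragments of that list, among them those of Pro-CGG-1, were named after their values were seen. Members and lists were chosen with earlier results of these data known, and the reading by end position after the values were seen. Alternatives were library sizes, DESeq2 1.42.0, prior count, a read minimum, each library left out and a replicate block. None of the 15 parent gene names matched the RefSeq table (GRCm38.p6), so no genome coordinates are given.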

Additional observations from a re-analysis of the deposited data

Results flagged for a closer look

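The control value of Lys-TTT 21 to 70 in replicate 1, 1.5 CPM, stood apart from the other 3 controls, which were all at 0. It rests on 1 read. Of the 18 groups of 4 values examined, this was the only one flagged. Beside 3 values at 0 any value above 0 is flagged, so the usual chance rate of about 1 in 20 does not apply. Without that library the fragment had 0 control reads and was 19.7-fold higher with cytokines (floor of 3 reads over the group). This value leaves out counting error in the cytokine reads, so it is not a lower limit. With it, the ratio of pooled reads, 76 against 1, was 80.8 (exact 95% interval 14.1 to 3233, counting error only).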

How the results depend on the processing

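All 6 lysine fragments kept their direction under each of the 16 alternatives run. The rows were listed for these directions, and the groups did not overlap in any of the 6. Leaving out a library therefore could not reverse a direction. The log2 fold changes ranged from 1.99 to 7.40 for Lys-TTT and from -4.43 to -0.67 for Lys-CTT, the latter being the 3-tRH with DESeq2 factors over the list. The log2 ratio of group means of the Lys-TTT sum, 5.24, became 7.06 with TMM factors and 7.23 with DESeq2 factors over the listed tRFs, and that of the Lys-CTT sum, -3.26, became -1.37 and -1.17. These factors moved the log2 fold changes of all listed tRFs up by a median of 1.73 and 1.95. The cytokine minus control difference of the log2 ratio of Lys-TTT to Lys-CTT, 8.28, was 10.24 with 0.1 read and 7.31 with 1 read added in place of 0.5, and 7.24 without the most abundant fragment of each tRNA. Leaving out each library gave 4.83 to 5.91, -3.56 to -2.85 and 7.71 to 8.73 for these 3 values. A minimum of 20 reads removed no tRF. Same-numbered libraries did not deviate together (r from -0.35 to 0.26 over the listed tRFs, 3 of 8 libraries nearest to their own number), and the difference with the replicate block, 8.28, equals that without it by construction, since every number occurs once in each group. With 1 read worth 1.06 to 2.72 CPM, listed Lys-TTT fragments in controls and Lys-CTT fragments with cytokines are at the limit of detection.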
